A study of Macaca mulatta with 9 samples.

Results

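The collagen chains were followed in rhesus macaque embryonic stem (ES) cells, in embryoid bodies and in skin fibroblasts, on Affymetrix rhesus genome arrays. Members were all probe sets whose deposited annotation gives a symbol made of COL, a number, A and a number. There were 99 such probe sets of 52763 analysed, and they named 39 genes of 19804. The chains were sorted into 11 fibrillar genes (31 probe sets), 8 basement membrane genes (22 probe sets: COL4A1 to COL4A6, COL15A1 and COL18A1) and 20 other genes (46 probe sets). In this account 1 probe set stood for each gene, the brightest by its mean over the samples. Levels are log2(signal + 16), so that a difference of 1 is a 2-fold change and a signal near 0 reads as 4.

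Of the 9 arrays, 1 held pooled embryoid bodies (EBs), 1 held adult skin fibroblasts and 7 held ES cells. EBs are aggregates of ES cells that differentiate spontaneously. They were made from ORMES cells in ES medium (15% serum) from which FGF2 had been removed, for 30 days, although the labels differ on whether these days were spent in suspension or, after 1 week of suspension, on gelatin. The fibroblasts were grown to confluence in medium with 10% serum. The ES lines were ORMES6 (biological replicates A, B and C), ORMES7, ORMES9, ORMES10 and ORMES13, each of the last 4 on 1 array. All lines grew on mitotically inactivated mouse embryonic fibroblasts with 15% serum and 4 ng/ml FGF2, and colonies of good morphology were removed by hand. The parent lines of the EB pool, the number of EB cultures and the donors of the fibroblasts are not given in the sources used here, and the spread within either differentiated sample is unknown.

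Collagens are secreted proteins whose alpha chains wind around each other into a helix and assemble outside the cell. Fibrillar collagens (types I, II, III, V and XI among them) build the cables of skin, bone and cartilage, type IV forms the sheet-like network of basement membranes, and the others coat fibrils, form beaded filaments or short-chain networks, or span the cell membrane. Fibroblasts are the classic producers of types I, III, V and VI, whereas cartilage cells make types II, IX and XI, and epithelial and endodermal cells lay down type IV. Before export the chains are hydroxylated and folded in the endoplasmic reticulum, and outside the cell the ends of fibrillar procollagens are cut off by proteinases.

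The labelled cell types were checked against marker genes. The pluripotency list (6 genes) was called lower in EBs and in fibroblasts for all 6 members, where 1.76% and 11% of all genes were. Its summed signal was 2607 in EBs, 71.2 in fibroblasts and 19226 to 29282 on the ES arrays. NANOG, a pluripotency factor, stood at 5.47 in EBs, 4.10 in fibroblasts and 11.28 to 12.36 on the ES arrays. FAP, a fibroblast surface protease, stood at 11.60 in EBs, 12.67 in fibroblasts and 4.09 to 6.10 on the ES arrays. Not every member of the fibroblast and mesenchyme list was higher in fibroblasts, since THY1 was called lower there than in ES cells. Control transcripts spiked into the hybridisation mix had a geometric mean signal of 506 on the EB array, 874 on the fibroblast array and 571 to 1157 on the ES arrays. The 3' to 5' signal ratio of actin, a measure of RNA integrity and labelling length, was 7.15 on the EB array, 13.1 on the fibroblast array and 22.7 to 66.2 on the ES arrays. The same ratio for GAPDH was 1.61 on the EB array, 2.74 on the fibroblast array and 2.55 to 5.20 on the ES arrays. Both ratios were lower in EBs than on every ES array, so RNA integrity and cell type cannot be told apart there. By the actin ratio the same holds for fibroblasts, but their GAPDH ratio lay within the range of the ES arrays. The part of RNA integrity in the fibroblast differences was not tested. Fewer cells of a type and less RNA per cell cannot be told apart in any of these bulk samples.

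**Figure D1:**
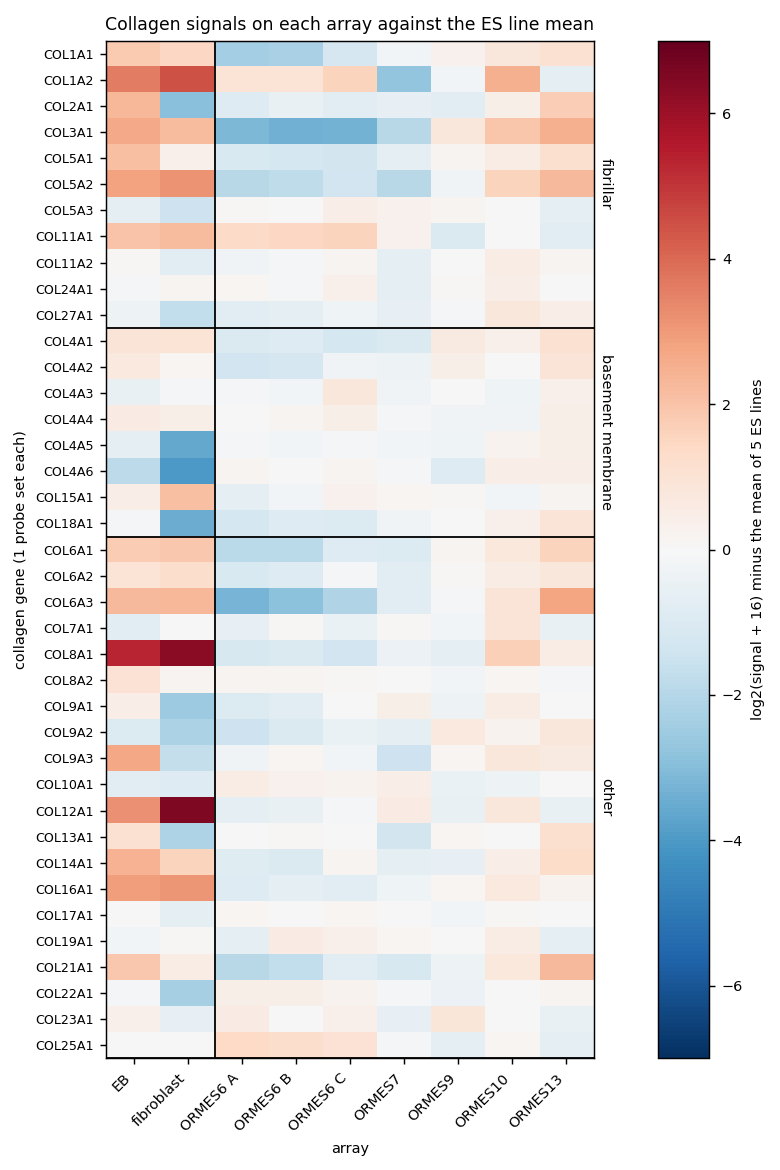
Heat map of the 39 collagen genes (rows, by class, 1 probe set each) on the 9 arrays (columns). Colour gives log2(signal + 16) minus the mean of the 5 ES lines (red higher, blue lower). COL8A1 and COL12A1 are deep red in EBs and fibroblasts, COL4A5, COL4A6 and COL18A1 are blue in fibroblasts, and COL3A1, COL5A2 and COL6A3 shift from blue in ORMES6 to red in ORMES13.

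Differences from the ES cells were tested against the spread between the 5 lines, with limma on all probe sets and Benjamini-Hochberg adjustment over all of them, and called below an adjusted p of 0.05. In EBs 3 of the 39 collagen genes were called higher, where 2.03% of all genes were, and 0 were called lower, where 1.76% of all genes were. At an unadjusted p below 0.05 limma gave 10 collagen genes higher and 1 lower in EBs. The share of all genes below that unadjusted p was not computed for EBs or fibroblasts. Counts of this kind, here and below, therefore have no background to be read against. In fibroblasts 4 collagen genes were called higher, where 7.06% of all genes were, and 5 lower, where 11% of all genes were. The EB array lay above all 7 ES arrays for 17 of the 39 genes, where it did so for 21.5% of all genes. The median difference over the 39 genes was 0.70 for EBs and 0.15 for fibroblasts, against -0.04 and -0.25 over all genes. Both comparisons use the same ES arrays.

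Of the fibrillar chains, 7 of 11 lay above every ES array in the EBs (COL1A1, COL1A2, COL2A1, COL3A1, COL5A1, COL5A2 and COL11A1), yet limma called 0 of the 11 by their standing probe sets in either comparison. At an unadjusted p below 0.05, 4 of the 11 were higher in EBs and 0 lower, while 2 were higher and 3 lower in fibroblasts. The median fibrillar difference was 1.98 in EBs and 0.37 in fibroblasts. The ES lines themselves differed widely in these genes, and that spread entered the error of each test.

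COL3A1 encodes the chain of type III collagen, found with type I in skin and vessel walls. Its level was 12.92 in EBs and 12.47 in fibroblasts, against 7.15, 6.92 and 6.98 in ORMES6 A, B and C, with ORMES7 at 8.34, ORMES9 at 11.06, ORMES10 at 12.22 and ORMES13 at 12.74. Lines ORMES10 and ORMES13 thus came within 0.70 of the EB level, and ORMES13 passed the fibroblasts, while ORMES6 stayed more than 5 units below both. The difference from the line mean was 2.64 ± 1.83 in EBs (SE, adjusted p = 0.547) and 2.19 ± 1.83 in fibroblasts (adjusted p = 0.526), so neither exceeded the spread between the 5 lines.

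COL1A1 and COL1A2 encode the chains that assemble together into type I collagen, the main collagen of skin and bone. COL1A1 stood at 12.40 in EBs and 11.98 in fibroblasts, against 8.17, 8.28 and 9.34 in ORMES6 A, B and C, with ORMES7 at 10.33, ORMES9 at 10.82, ORMES10 at 11.34 and ORMES13 at 11.61. COL1A2 stood at 12.30 in EBs and 13.15 in fibroblasts, against 9.66, 9.67 and 10.25 in ORMES6 A, B and C, with ORMES7 at 5.94, ORMES9 at 8.55, ORMES10 at 11.22 and ORMES13 at 8.03. Both genes lay above every ES array in EBs and in fibroblasts, but the order of the lines was not the same for the 2 chains. ORMES7 was 1.73 above the ORMES6 mean for COL1A1 and below it for COL1A2 (difference -3.93). The second COL1A2 probe set gave -4.15 for the same pair of lines. The difference for COL1A2 was 3.58 ± 1.47 in EBs (adjusted p = 0.263) and 4.44 ± 1.47 in fibroblasts (adjusted p = 0.0914). For COL1A1 it was 1.86 ± 0.90 in EBs (adjusted p = 0.351) and 1.44 ± 0.90 in fibroblasts (adjusted p = 0.384). Without ORMES10 the COL1A2 difference was called in fibroblasts (5.06, adjusted p = 0.0350), and over all 17 alternatives its adjusted p ran from that value to 0.142. The probe sets shown for COL1A1, COL5A1 and COL11A1 end in _s_at, a type that can detect related transcripts. Another COL1A1 probe set was called higher in EBs by 3.74 ± 0.72 (adjusted p = 0.0333), with levels of 10.36 in EBs, 8.79 in fibroblasts and 4.74 to 7.64 on the ES arrays.

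COL5A1 and COL5A2 encode type V chains, which start and limit the growth of type I fibrils. COL5A2 stood at 12.44 in EBs and 12.74 in fibroblasts, against 7.67, 7.81 and 8.25 in ORMES6 A, B and C, with ORMES7 at 7.66, ORMES9 at 9.39, ORMES10 at 11.17 and ORMES13 at 11.90. All ES arrays lay below both differentiated samples, with ORMES13 within 0.85 of them. The difference for COL5A2 was 2.83 ± 1.40 in EBs (adjusted p = 0.366) and 3.13 ± 1.40 in fibroblasts (adjusted p = 0.214). Its second probe set was called higher in fibroblasts, by 3.85 ± 0.99 (adjusted p = 0.0360). COL5A1 stood at 11.25 in EBs, 9.52 in fibroblasts and 7.88 to 10.25 on the ES arrays. COL5A1 thus lay above all ES arrays in EBs, and fibroblasts lay within the range of the ES arrays. COL5A3, the remaining type V chain, went the other way at 6.59 in EBs and 5.76 in fibroblasts, below every ES array (6.60 to 7.66), and was not called.

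COL2A1, the chain of cartilage type II collagen, separated the EBs from the fibroblasts. It stood at 9.36 in EBs and 4.11 in fibroblasts, against 6.11, 6.53 and 6.22 in ORMES6 A, B and C, with ORMES7 at 6.43, ORMES9 at 6.22, ORMES10 at 7.43 and ORMES13 at 8.78. EBs lay above all 7 ES arrays and fibroblasts below all of them. The difference was 2.34 ± 0.86 in EBs (adjusted p = 0.212) and -2.91 ± 0.86 in fibroblasts (adjusted p = 0.0617). The fibroblast level lay below 4.46, the lowest Present signal of that array. Without ORMES13, the line nearest to the EBs, both differences were called (2.77, adjusted p = 0.0390, and -2.48, adjusted p = 0.0207). The fibroblast difference was also called with ORMES13 kept, under the filter on low values (-2.91, adjusted p = 0.0406) and with offset 1 (-5.61, adjusted p = 0.00561). Over 17 alternatives the adjusted p ran from 0.0390 to 0.394 in EBs and from 0.00561 to 0.225 in fibroblasts.

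COL11A1, a type XI chain that copolymerises with type II and type V collagen, ran in another order over the lines. Its level was 11.89 in EBs and 12.13 in fibroblasts, against 11.27, 11.35 and 11.45 in ORMES6 A, B and C, with ORMES7 at 10.21, ORMES9 at 8.93, ORMES10 at 9.96 and ORMES13 at 9.10. ORMES6, the lowest line for COL1A1, COL3A1 and COL5A1, was the highest line for COL11A1 and lay less than 1 unit below both differentiated samples. The difference was 1.98 ± 0.75 in EBs (adjusted p = 0.225) and 2.22 ± 0.75 in fibroblasts (adjusted p = 0.0970), and without ORMES6 the fibroblast difference was called (2.58, adjusted p = 0.0191, with 0.00336 to 0.248 over 17 alternatives). Another COL11A1 probe set was called higher in fibroblasts by 3.37 ± 0.84 (adjusted p = 0.0315). The fibrillar genes COL11A2, COL24A1 and COL27A1 were not called in EBs or fibroblasts by their standing probe sets. These gave 7.66, 5.03 and 9.72 in EBs, with 6.87, 5.26 and 8.34 in fibroblasts. A dimmer COL27A1 probe set was called lower in fibroblasts (difference -1.44 ± 0.39). It read 4.20 there and 4.97 to 6.07 on the ES arrays, and was Absent in all 5 ES lines.

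**Figure D2:**
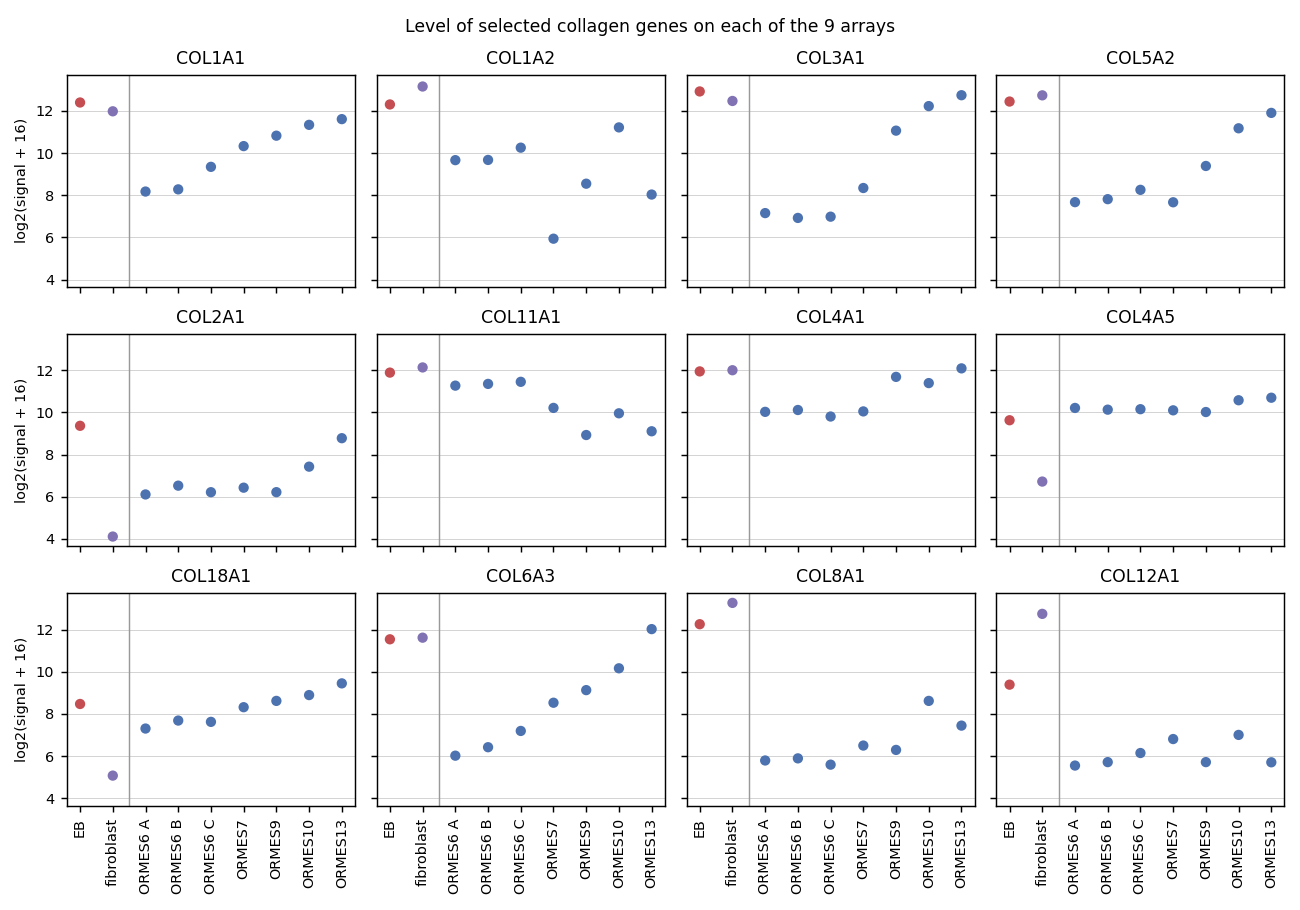
Level of 12 collagen genes, as log2(signal + 16), on each array: EB (red), fibroblast (purple) and the 7 ES arrays (blue), 1 point an array. COL1A1, COL3A1, COL5A2 and COL6A3 are highest in ORMES13 among the ES arrays, COL11A1 in ORMES6, COL4A5 and COL18A1 are low in fibroblasts only, and COL8A1 and COL12A1 stay below 8.70 on every ES array.

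Of the 8 basement membrane genes, 1 was called higher in fibroblasts, 3 lower and 4 in neither direction. Over all genes 7.06% were called higher there and 11% lower. COL4A1 and COL4A2, the most widespread type IV chains, were within the range of the ES arrays in both differentiated samples and were not called. COL4A1 stood at 11.94 in EBs and 12.00 in fibroblasts, against 10.02, 10.11 and 9.80 in ORMES6 A, B and C, with ORMES7 at 10.05, ORMES9 at 11.68, ORMES10 at 11.39 and ORMES13 at 12.09. COL4A2 stood at 9.55 in EBs, 9.01 in fibroblasts and 7.54 to 9.73 on the ES arrays. For both genes ORMES6 was the lowest line and ORMES13 the highest.

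By contrast, COL4A5, COL4A6 and COL18A1 fell in the fibroblasts. COL4A5 and COL4A6 encode type IV chains of epithelial and smooth muscle basement membranes, and COL18A1 encodes a heparan sulfate proteoglycan collagen that releases endostatin. COL4A5 stood at 9.63 in EBs and 6.72 in fibroblasts, against 10.21, 10.13 and 10.15 in ORMES6 A, B and C, with ORMES7 at 10.10, ORMES9 at 10.02, ORMES10 at 10.58 and ORMES13 at 10.70. The ES arrays lay within 0.70 of each other, and the fibroblasts were lower by a difference of -3.59 ± 0.34 (adjusted p = 0.000270). COL4A6 stood at 6.47 in EBs and 4.29 in fibroblasts, against 7.36 to 8.74 on the ES arrays (median 8.48 over 7 arrays). Its fibroblast value was called Absent by the deposited detection p-value, so the fold was computed against the lowest Present signal of that array or the chain's own signal, whichever was higher. COL4A6 was at least 14.2-fold lower in fibroblasts (adjusted p = 0.00138). The other COL4A6 probe sets were not called. The brightest of these, Present in 3 ES lines, read 6.44 in fibroblasts, within the 5.55 to 6.90 of the ES arrays. COL18A1 stood at 8.47 in EBs and 5.07 in fibroblasts, against 7.31, 7.69 and 7.62 in ORMES6 A, B and C, with ORMES7 at 8.32, ORMES9 at 8.62, ORMES10 at 8.89 and ORMES13 at 9.45. It was likewise Absent in fibroblasts and, against its own signal there, at least 11.2-fold lower (adjusted p = 0.00554). A second COL18A1 probe set was called lower too, by a difference of -3.14 ± 0.56 (adjusted p = 0.00707).

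In EBs these 3 chains were not called. The EB difference was -0.68 ± 0.34 for COL4A5 (adjusted p = 0.367), -1.81 ± 0.52 for COL4A6 (adjusted p = 0.113) and -0.09 ± 0.60 for COL18A1 (adjusted p = 0.960). EBs lay below every ES array for COL4A5 and COL4A6 and within their range for COL18A1. COL15A1, a close relative of COL18A1 found in muscle and vessel basement membranes, rose in fibroblasts. It stood at 5.57 in EBs and 7.20 in fibroblasts, against 4.38, 4.87 and 5.41 in ORMES6 A, B and C, with ORMES7 at 5.20, ORMES9 at 5.19, ORMES10 at 4.87 and ORMES13 at 5.28. The fibroblast difference was 2.11 ± 0.36 (adjusted p = 0.00585), and COL15A1 was Present in 1 of the 5 ES lines with a detection p-value and in fibroblasts. COL4A3 and COL4A4, chains best known from the kidney glomerulus, were dim, with 5.54 and 4.95 in EBs, 5.94 and 4.82 in fibroblasts, and were not called. Among the 8 basement membrane genes limma called 0 in EBs, with 0 higher and 1 lower at an unadjusted p below 0.05.

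**Figure D3:**
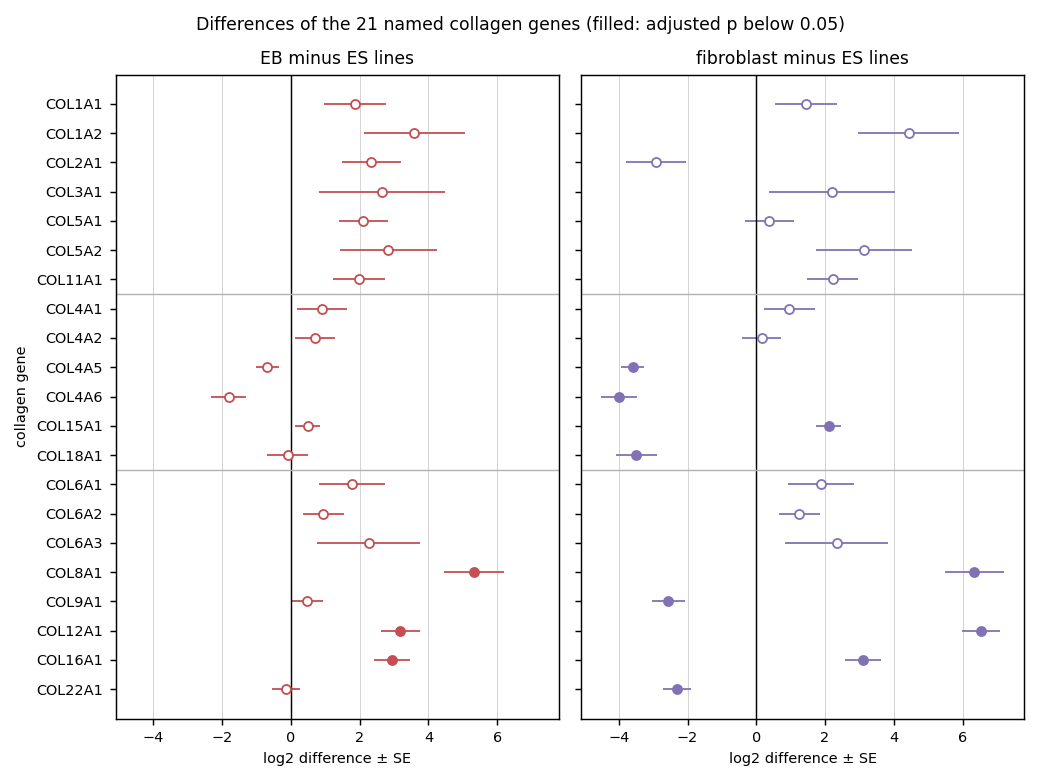
Difference of the EB array (left) and the fibroblast array (right) from the mean of the 5 ES lines for 21 collagen genes, in log2 units, with the SE as bars. Filled points have an adjusted p below 0.05. Lines part fibrillar, basement membrane and other chains. In EBs only COL8A1, COL12A1 and COL16A1 are filled; in fibroblasts these and COL15A1 are filled on the right of 0, and COL4A5, COL4A6, COL18A1, COL9A1 and COL22A1 on the left.

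The chains called higher in EBs came from the other collagens, where 3 of 20 genes were called, against 2.03% of all genes. The same 3 were called higher in fibroblasts, where 7.06% of all genes were. COL8A1 encodes a short-chain collagen that forms networks in vessel walls and in the membrane under the corneal endothelium. Its level was 12.25 in EBs and 13.26 in fibroblasts, against 5.79, 5.89 and 5.59 in ORMES6 A, B and C, with ORMES7 at 6.50, ORMES9 at 6.29, ORMES10 at 8.62 and ORMES13 at 7.45. Every ES array, the highest being ORMES10, lay more than 3 units below both differentiated samples. COL8A1 rose by 5.33 ± 0.87 in EBs (adjusted p = 0.0197) and 6.34 ± 0.87 in fibroblasts (adjusted p = 0.00179). Of its 6 probe sets, 3 were called higher in both comparisons. The one with the narrowest ES range read 10.45 in EBs and 10.62 in fibroblasts, against 4.57 to 5.00 on the ES arrays, where all 5 lines were called Absent.

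COL12A1 encodes a fibril-associated collagen that decorates type I fibrils in tendon, ligament and skin. It stood at 9.39 in EBs and 12.74 in fibroblasts, against 5.55, 5.71 and 6.15 in ORMES6 A, B and C, with ORMES7 at 6.81, ORMES9 at 5.71, ORMES10 at 7.0 and ORMES13 at 5.71. COL12A1 rose by 3.18 ± 0.56 in EBs (adjusted p = 0.0250) and 6.54 ± 0.56 in fibroblasts (adjusted p = 0.000168), the largest called collagen difference in either comparison. ORMES13, which matched the fibroblasts for COL3A1, lay among the lowest ES arrays for COL12A1. COL16A1, another fibril-associated chain, stood at 9.50 in EBs and 9.67 in fibroblasts, against 5.66, 5.93 and 5.85 in ORMES6 A, B and C, with ORMES7 at 6.24, ORMES9 at 6.68, ORMES10 at 7.25 and ORMES13 at 6.83. COL16A1 rose by 2.94 ± 0.51 in EBs (adjusted p = 0.0242) and 3.11 ± 0.51 in fibroblasts (adjusted p = 0.00474). Without ORMES9 the adjusted p for EBs was 0.0505 for COL12A1 and 0.0508 for COL16A1, just outside the threshold, with differences of 3.06 and 2.97. With the spike level as a covariate, COL8A1, COL12A1 and COL16A1 kept their sign in EBs (6.45, 2.47 and 4.09) but lost their calls (adjusted p = 0.204, 0.511 and 0.144). Over 17 alternatives the EB adjusted p ran from 0.00793 to 0.204 for COL8A1, from 0.0105 to 0.511 for COL12A1 and from 0.0111 to 0.144 for COL16A1. The EB array had the lowest spike level.

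Type VI collagen, made of COL6A1, COL6A2 and COL6A3 chains, forms beaded filaments around cells. COL6A3 stood at 11.54 in EBs and 11.62 in fibroblasts, against 6.02, 6.42 and 7.19 in ORMES6 A, B and C, with ORMES7 at 8.53, ORMES9 at 9.13, ORMES10 at 10.16 and ORMES13 at 12.02. ORMES13 lay above both differentiated samples and ORMES6 more than 4 units below them. COL6A1 stood at 11.81 in EBs and 11.92 in fibroblasts, against 8.15, 8.16 and 9.15 in ORMES6 A, B and C, with ORMES7 at 9.06, ORMES9 at 10.22, ORMES10 at 10.80 and ORMES13 at 11.61. COL6A2 read 8.06 in EBs and 8.37 in fibroblasts, above the range of 6.07 to 7.90 on the ES arrays. None of the 3 genes was called by its standing probe set: the EB differences were 1.78, 0.95 and 2.26 for COL6A1, COL6A2 and COL6A3, with adjusted p from 0.412 to 0.526. A dimmer COL6A1 probe set was called higher in EBs, with 7.21 in EBs and 4.76 to 5.24 on the ES arrays. It was Absent in all 5 ES lines, so only a bound can be given, at least 5.13-fold higher in EBs (adjusted p = 0.0138). The same probe set was also called in fibroblasts, but it was Absent there too, and no fold is given.

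Among the other fibril-associated chains, COL9A1 and COL22A1 fell in fibroblasts. COL9A1, a cartilage chain that binds type II fibrils, stood at 7.85 in EBs, 4.82 in fibroblasts and 6.44 to 7.91 on the ES arrays, with a fibroblast difference of -2.56 ± 0.47 (adjusted p = 0.00821). COL22A1, known from tissue junctions such as that of muscle and tendon, stood at 7.17 in EBs, 5.00 in fibroblasts and 6.89 to 7.72 on the ES arrays, with a fibroblast difference of -2.31 ± 0.40 (adjusted p = 0.00567). EBs were within the ES range for both. These probe sets were Present in 3 (COL9A1) and 2 (COL22A1) of the 5 ES lines, and neither had a detection p-value in fibroblasts. The dimmer probe sets, Absent in all 5 ES lines, did not fall alike. Their fibroblast difference was -0.08 for COL9A1, and 0.19 and 0.11 for COL22A1. The partner chain COL9A3 read 9.47 in EBs and 5.07 in fibroblasts against 5.31 to 7.54 on the ES arrays, and COL9A2 read 7.46 in EBs, 6.18 in fibroblasts and 6.96 to 9.21 on the ES arrays. Neither was called. COL14A1, which binds fibrils in skin and tendon, read 8.13 in EBs and 7.23 in fibroblasts, above the ES arrays (4.67 to 7.0), and was not called.

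Set against each other with no test, since each is 1 array, EBs exceeded fibroblasts by more than 2-fold for 12 of 39 collagen genes, where 18.2% of all genes did. Fibroblasts exceeded EBs by more than 2-fold for 3 genes, where 8.5% of all genes did. The 3 were COL12A1 (EB minus fibroblast -3.36), COL15A1 (-1.62) and COL8A1 (-1.01). In the other direction the differences were 3.23 for COL13A1, a transmembrane collagen of cell adhesions, 3.03 for COL9A1 and 2.91 for COL4A5. The fibroblast value of COL9A3 and COL18A1 was called Absent and that of COL2A1 lay below the lowest Present signal of the array, so these 3 have only a bound: EBs were at least 29.9-fold higher for COL2A1, at least 21.1-fold for COL9A3 and at least 10.5-fold for COL18A1. The second COL2A1 probe set, Present in fibroblasts, gave 2.81. The cartilage chains COL2A1, COL9A1, COL9A3 and COL9A2 (1.28) were thus all higher in EBs, though COL11A1 (-0.25) was not. The chains COL1A1 (0.42), COL3A1 (0.45), COL5A2 (-0.29), COL6A1 (-0.11) and COL6A3 (-0.08) differed by less than 2-fold between the 2 samples.

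Differences between the ES lines were tested with limma's F test on the ES arrays, with the 3 ORMES6 replicates as the sole source of error. COL3A1 was the only collagen gene called (adjusted p = 0.0167), 1 of 39, where 0.162% of all genes were called. At the probe set level 0.104% of all were called, and 2 of the 99 collagen probe sets, both of COL3A1. The second of them was called at an adjusted p of 0.0273, with 7.17 in ORMES9, 10.06 in ORMES10 and 11.08 in ORMES13 against 5.40 to 5.86 in ORMES6. The call rests on the replicates. Without ORMES6 replicate A or without replicate B 0 of the 99 collagen probe sets were called, where 0% of all probe sets were. Without replicate C 34 were called, where 15.9% of all probe sets were. Over 11 alternatives the adjusted p of COL3A1 ran from 9.77e-05 to 0.145. With all 3 replicates, 21 of 39 genes had an unadjusted p below 0.05, where 13% of all genes did. The lines spanned more than 4-fold for 14 of 39 genes, where 4.99% of all genes did, and for 7 of the 11 fibrillar genes. The count was 10 of 39 without ORMES13 and 17 of 39 without ORMES6 replicate C, where 3.38% and 5.86% of all genes did.

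Which line stood highest or lowest was counted for each gene. ORMES13 was the highest line for 19 of 39 collagen genes, where 23.7% of all genes had it highest, and for 7 of the 8 basement membrane genes. ORMES10 was highest for 12 of 39, where 21.8% of all genes had it highest. ORMES6 was the lowest line for 14 of 39 genes, where 23.9% of all genes had it lowest. The spike signal was also lower on ORMES6 A and B (594 and 571) than on C (1157) and the other lines (878 to 1148). The 3' to 5' ratios differed too. For actin the ratio was 22.7, 52.1 and 59.5 on ORMES6 A, B and C. It was 49.3 on ORMES7, 49.8 on ORMES9, 66.2 on ORMES10 and 59.0 on ORMES13. For GAPDH the ratio was 2.55, 2.93 and 4.23 on ORMES6 A, B and C. It was 3.93 on ORMES7, 3.79 on ORMES9, 5.20 on ORMES10 and 4.76 on ORMES13. The part of array quality in the order of the lines was not tested. The largest spans over lines were 5.72 for COL3A1, 5.48 for COL6A3, 5.28 for COL1A2, 4.24 for COL5A2 and 3.76 for COL21A1. COL21A1, a fibril-associated chain of vessel walls, read 8.16 in EBs and 6.76 in fibroblasts, with 8.52 in ORMES13 and 4.29 to 5.44 in ORMES6. The smallest spans of the 39 were those of COL17A1 (0.31), COL8A2 (0.35) and COL15A1 (0.41). Because of these spans the distance to the EBs depended on the line. The median EB difference over the 11 fibrillar genes was 2.44 when set against ORMES6, 2.07 with ORMES7, 1.86 with ORMES9, 1.06 with ORMES10 and 0.54 with ORMES13.

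Some markers of other cells also differed between the lines, and no test of joint movement with the collagens was run. Of the fibroblast and mesenchyme list (14 genes), 2 were called higher and 0 lower in EBs, 5 higher and 1 lower in fibroblasts, and 3 between lines. Over all genes, 2.03% were called higher and 1.76% lower in EBs, with 7.06% and 11% in fibroblasts and 0.162% between lines. LUM, the fibril-binding proteoglycan lumican, stood at 10.46 in ORMES9, 11.40 in ORMES10 and 12.37 in ORMES13, against 4.62 to 4.80 in ORMES6 and 4.98 in ORMES7 (adjusted p = 0.0149). DCN, or decorin, which also binds fibrils, stood at 11.23 in ORMES13 and 4.99 to 5.04 in ORMES6 (adjusted p = 0.0201). POSTN, the matrix protein periostin, stood at 10.35 in ORMES13 and 5.59 to 5.91 in ORMES6 (adjusted p = 0.0368). The summed signal of the list was 31535 in EBs, 45291 in fibroblasts and 7994 to 19059 on the ES arrays, with the highest ES value in ORMES13, and 1 of its 14 genes was Absent in all 5 ES lines. The 14 were not low throughout in ORMES6 and ORMES7: THY1, the member called lower in fibroblasts, stood at 10.83 to 11.91 on the ES arrays. The calls between lines rest on the ORMES6 replicates: without replicate A or without replicate B 0 of the 70 marker genes were called, where 0% of all probe sets were, and the adjusted p of LUM was then 0.0745 and 0.128.

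The cartilage list (9 genes) summed to 1287 in EBs, 520 in fibroblasts and 490 to 3957 on the ES arrays, highest in ORMES13, and 3 of its 9 genes were Absent in all 5 ES lines. In EBs 0 of the 9 were called, also at an unadjusted p below 0.05, and in fibroblasts AGC1 (aggrecan) was called higher and SOX5 lower. HAPLN1, a cartilage link protein, stood at 11.52 in ORMES13 and 4.16 to 4.21 in ORMES6 (adjusted p = 0.0167). The parietal and visceral endoderm list (8 genes) summed to 2830 in EBs, 1689 in fibroblasts and 1221 to 10233 on the ES arrays, highest in ORMES13 and lowest in ORMES7, with 0 of its 8 genes Absent in all 5 lines. Of these 8, 0 were called in EBs (2 lower at an unadjusted p below 0.05), and SOX17 and FOXA2 were called lower in fibroblasts. APOA1, an apolipoprotein of liver and visceral endoderm, stood at 11.86 in ORMES13 and 6.23 to 6.91 in ORMES6 (adjusted p = 0.0273), and TTR, the carrier transthyretin, at 10.42 in ORMES13 and 4.47 to 5.31 in ORMES6 (adjusted p = 0.0427). The pluripotency list was lowest of the ES arrays in ORMES13, at 19226. The part of these other cell types in the collagen differences between lines was not tested. In EBs, where 2.03% of all genes were called higher, 5 of 8 neural genes were (FABP7 by 5.39 ± 0.81, DCX by 4.43 ± 0.54 and MAP2 by 3.20 ± 0.53). So were 2 of 7 smooth muscle and pericyte genes (ACTA2 by 3.05 ± 0.56, and DES, Absent in all 5 ES lines, at least 4.38-fold). With the spike level as a covariate 0 of the 16 marker genes called in EBs, the pluripotency genes among them, stayed called. Of all probe sets 0.0019% were called in EBs in that setting. The endothelium list had 0 of 7 called higher and 1 lower in EBs (TEK, difference -2.70 ± 0.55), with 1 higher and 2 lower at an unadjusted p below 0.05. Of the keratinocyte (6 genes) and blood (5 genes) lists 0 were called in EBs, also at an unadjusted p below 0.05, and 1 of each was called higher in fibroblasts (TP73L by 2.35 ± 0.57, and CD68, Absent in all 5 ES lines, at least 18.7-fold).

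**Figure D4:**
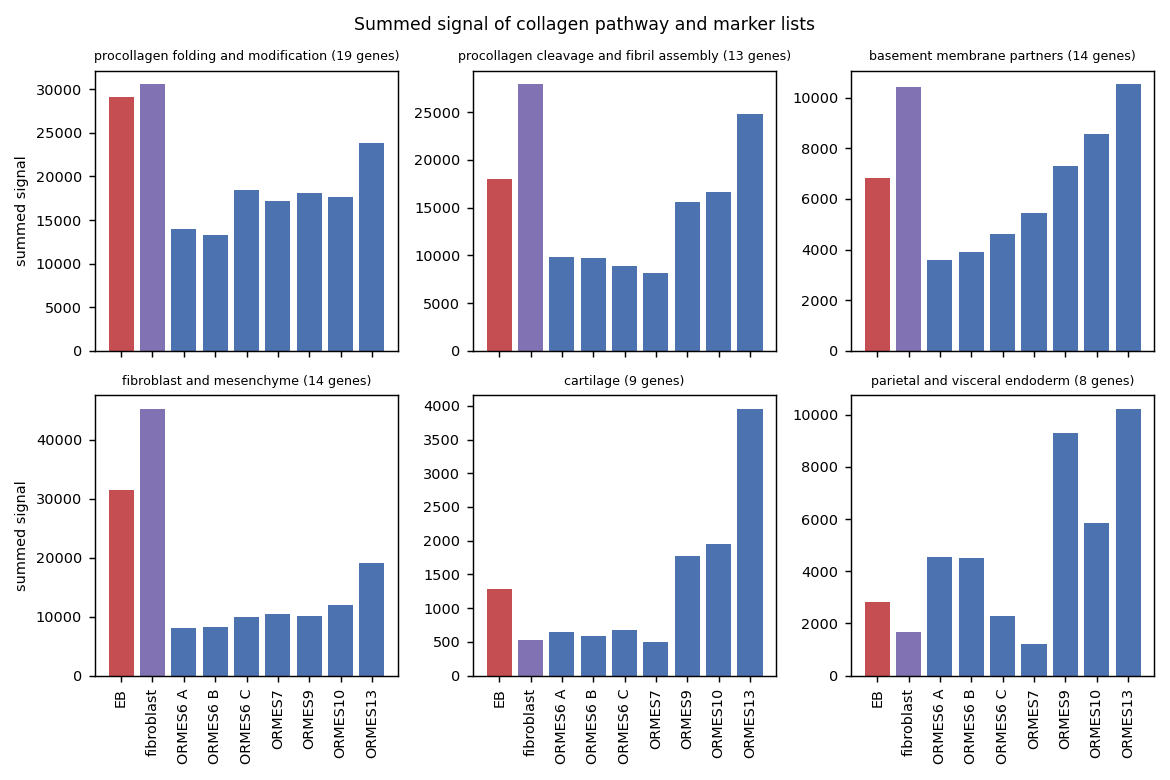
Summed signal (linear scale, bars from 0) of 6 gene lists on each array: EB (red), fibroblast (purple) and ES arrays (blue). Sums for folding, cleavage and fibroblast genes are higher in fibroblasts than on any ES array, and ORMES13 is the highest ES array in the 6 lists drawn, which are among the 7 of all 13 lists where it was.

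The enzymes and partners that collagens need were followed in 4 lists, of whose 56 genes 4 were called in EBs (PLOD2, ITGA2, LAMA4 and LAMA5). Over all genes 3.79% were called in EBs, while in fibroblasts 7.06% were called higher and 11% lower. With the spike level as a covariate 0 of the 4 stayed called (adjusted p = 0.184, 0.126, 0.527 and 0.702), nor did any without ORMES10. Of 19 genes that fold and modify procollagen, 1 was called higher in EBs, and 3 higher and 1 lower in fibroblasts. PLOD2, the lysyl hydroxylase of the chain ends, rose by 3.08 ± 0.54 in EBs (adjusted p = 0.0242) and 3.76 ± 0.54 in fibroblasts (adjusted p = 0.00223). P4HA2, a prolyl hydroxylase subunit, rose in fibroblasts by 2.87 ± 0.59 (adjusted p = 0.0133), and SEC23A, a coat protein of the vesicles that export procollagen, by 1.34 ± 0.27 (adjusted p = 0.0130). The galactosyltransferase GLT25D2 fell there by 1.80 ± 0.45 (adjusted p = 0.0309). The list's median difference was 0.81 in EBs and 0.83 in fibroblasts, against -0.04 and -0.25 over all genes.

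Of 13 genes that cleave procollagen or help fibrils assemble, limma called 0 in EBs, with 4 higher and 1 lower at an unadjusted p below 0.05. In fibroblasts PCOLCE2, an enhancer of the procollagen C-proteinase, rose by 3.19 ± 0.34 (adjusted p = 0.000489) and ADAMTS3, a procollagen N-proteinase, fell by 2.42 ± 0.42 (adjusted p = 0.00606). The summed signal of this list was 18037 in EBs, 27966 in fibroblasts and 8148 to 24847 on the ES arrays, highest in ORMES13. Of 10 collagen receptors, ITGA2 (the integrin alpha 2 chain) rose in EBs by 2.61 ± 0.44 (adjusted p = 0.0218) and in fibroblasts by 2.65 ± 0.44 (adjusted p = 0.00481). In fibroblasts DDR2 rose by 3.24 ± 0.63 (adjusted p = 0.0108), ITGA1 by 2.92 ± 0.53 (adjusted p = 0.00752) and ITGA11, Absent in all 5 ES lines, at least 5.16-fold (adjusted p = 0.0138), while DDR1 fell by 1.39 ± 0.31 (adjusted p = 0.0192). DDR1 and DDR2 are the collagen-binding receptor kinases, DDR1 typical of epithelia and DDR2 of mesenchyme. The summed signal of the receptors was 9778 in EBs, 15204 in fibroblasts and 8508 to 10678 on the ES arrays, highest in ORMES6 C, with 8748 in ORMES13.

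Of 14 basement membrane partners, 1 rose and 1 fell in EBs, and 2 rose and 2 fell in fibroblasts. LAMA4, the laminin alpha chain of vessel and mesenchymal basement membranes, rose by 2.19 ± 0.36 in EBs (adjusted p = 0.0201) and 2.70 ± 0.36 in fibroblasts (adjusted p = 0.00156). LAMA5, the broadly epithelial alpha chain, fell by 1.85 ± 0.40 in EBs (adjusted p = 0.0490) and 2.02 ± 0.40 in fibroblasts (adjusted p = 0.0110). LAMA1, the alpha chain of the early embryo's basement membranes, was Absent in fibroblasts, at 4.15 against 7.20 to 9.74 on the ES arrays (adjusted p = 0.0105), and LAMB2 rose there by 1.47 ± 0.36 (adjusted p = 0.0281). The summed signal of these partners was 6828 in EBs, 10429 in fibroblasts and 3597 to 10543 on the ES arrays, again highest in ORMES13.

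Neighbouring genes were compared where the RefSeq annotation of the macaque assembly T2T-MMU8v2.0 places 2 measured collagen genes next to each other, which gave 6 pairs. COL3A1 and COL5A2 were both highest in ORMES13, by 5.72 and 3.99 over ORMES6. COL4A1 and COL4A2, which share a promoter region in mammals, had ORMES13 higher than ORMES6 by 2.11 and 1.79. COL6A1 and COL6A2 had it higher by 3.12 and 1.47. COL4A6 and COL4A5 were both lower in fibroblasts (-3.99 and -3.59). COL9A1 and COL19A1 gave -2.56 and 0.09 in fibroblasts, and COL4A4 and COL4A3 were not called in any comparison.

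Probe sets of 1 gene were not always equally informative. Of the 31 genes with several probe sets, 4 had some but not all called in EBs and 11 in fibroblasts, and for 0 genes were all of them called in either comparison. No gene had probe sets called in opposite directions. At the probe set level 8 of 99 were called higher in EBs, where 1.53% of all probe sets were, and 0 lower, where 0.912% of all were (limma, 2 of 99 lower at an unadjusted p below 0.05). In fibroblasts 12 of 99 were called higher, where 5.48% of all were, and 7 lower, where 6.44% of all were. The detection p-values called 24 of the 99 probe sets Present in all 5 ES lines and 39 in none.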

How the data were processed

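Total RNA of 9 samples was hybridised to 1 Affymetrix array each. The authors deposited probe set signals, intensity values on a linear scale made with MAS5 (Microarray Suite 5.0, per the labels), and detection p-values for the ES lines (for ORMES6 on 1 array) and, for 12094 probe sets, the fibroblasts. Per the file headers, the deposited p-values are MAS5 detection values, read here as Present below 0.05 and Absent above 0.065. EB detection calls were not used. The trimmed mean signals were 199 on every array after rounding, so the deposited scaling was kept. Control probe sets (99) and 3 with missing values were left out, and no filter on level was applied. A further 136 columns of per-sample values were not used.

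Signals were taken as log2(signal + 16) and fitted with limma 3.58.1 (R 4.3.3, eBayes with a trend) over all 52763 probe sets. ORMES6 replicates were averaged, so the 5 lines were the replicates (4 residual degrees of freedom, to which eBayes added a median of 5.04). The lone EB and fibroblast arrays were assumed to vary as the lines do, and p-values measure the spread between these lines only. Lines were compared by an F test over the 7 ES arrays (2 residual degrees of freedom). Tests were two-sided, with Benjamini-Hochberg adjustment over all probe sets. The fits were run on simulated data with the same spread for every array, which cannot test the assumption made for the lone arrays. All 39 symbols matched the RefSeq table, and 3 probe sets were named from a sequence-tagged site description.

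Named were every collagen gene called, 14 fixed genes, examples of each class, and of each list at most 4 called members. The members, classes and lists were chosen with earlier results of these data known. Alternatives were other offsets, quantile or median scaling, a filter on low values, no variance trend, 1 probe set a gene, each ES array as a sample, a spike covariate and leaving out replicates or lines. The annotation mostly names human orthologues, and the number of arrays limits the precision.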

Additional observations from a re-analysis of the deposited data

Results flagged for a closer look

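COL2A1 lay on opposite sides of the ES arrays in the differentiated samples. The EB array lay above all 7 ES arrays (9.36, against 6.11 to 8.78) and the fibroblast array below all of them (4.11), which is a value under the lowest Present signal of that array. Set against that signal, EBs were higher by at least 4.90 on the log2 scale. This difference between the samples was not tested, since each is 1 array. Its second probe set read 8.65 in EBs and 5.85 in fibroblasts, with 5.62 to 7.09 on the ES arrays, so there the fibroblasts lay within the ES range. Over the 5 lines none of the 21 named collagen genes had a line far enough from the others to pass Dixon's critical value of 0.71.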

How the results depend on the processing

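The collagen probe sets called in EBs (8) numbered 3 with 1 probe set a gene, where 39 and not 99 were in the fit, and 0 with the spike level as a covariate, where 0.0019% of all probe sets were called. Leaving out 1 array or line gave 4 (without ORMES9, where 1.29% of all probe sets were called) to 10 (without ORMES13, where 2.34% were). The 19 called in fibroblasts, where 11.9% of all probe sets were called, numbered 11 with 1 probe set a gene, where 20.9% were. With 1 array or line left out they numbered 16 (without ORMES9, where 9.9% were) to 24 (without ORMES13, where 11.1% were). The split of 12 higher and 7 lower became 17 and 6 with median centring, 17 and 8 with the spike covariate, 15 and 6 with offset 64, 15 and 7 with quantile normalization, 11 and 9 with no variance trend, 11 and 11 with offset 1, 10 and 10 with the filter on low values and 4 and 7 with 1 probe set a gene. For that split, 27% of all probe sets were called with the filter, and 10.8% to 13.3% in the rest bar 1 probe set a gene. Between ES lines the 2 called probe sets became 7 with each array centred on its median, 5 with the filter, 5 with offset 1 and 0 with no variance trend. The shares of all probe sets called were then 0.296%, 0.493%, 0.144% and 0.00569%, against 0.104% in the main fit. With the spike covariate 33 were called, where 11.7% of all were. Without ORMES6 replicate C 34 were, where 15.9% of all were, and without A or B 0 were, where 0% of all were. Of the named genes 1 was called between lines, and 2 with 1 probe set a gene, 5 with median centring, 4 with the filter, 3 with offset 1, 0 with no variance trend, 15 with the spike covariate and 0 to 17 with 1 ORMES6 replicate left out. The causes were not tested. The past 2-fold count between EBs and fibroblasts (27 probe sets) was 15 with 1 probe set a gene and 23 to 38 otherwise. The named genes called against EBs or fibroblasts (9) numbered 9 to 11 in all settings. Every gene called in the main fit was named, so this count is partly fixed by that choice. It also joins both comparisons: with the spike covariate it was 11, although the 3 genes called in EBs lost their EB calls. Counts of genes spanning 4-fold over lines (10 to 20), highest in ORMES13 (19 or 20) and with EBs above every ES array (17 to 22) were recomputed under alternatives chosen after seeing the data. No alternative turned the sign of a called difference. The median over all probe sets was -0.04 in EBs and -0.19 in fibroblasts, and every called collagen difference was larger than that shift. No paired analysis was possible because only ORMES6 has replicate labels. Signals near the floor limit what can be said of dim chains.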
